A study of Mus musculus with 12 samples.

Results

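Microglia and macrophage genes were followed in granule cell progenitor preparations from the postnatal day 8 mouse cerebellum. The set holds 36 genes that microglia and other macrophages express, given as a list of symbols, and each was read from its brightest probe set. Of the 36 symbols, 36 were found among the 18194 genes measured, and no filter on low values was applied, so 36 entered every test. The members are surface receptors, complement chains, immune adaptors, lysosomal enzymes and transcription factors. They were not chosen by a threshold on these arrays, but they were chosen with earlier results of these data known.

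The study compared granule cell progenitors of wild type mice with progenitors carrying SmoM2, a constitutively active form of the hedgehog transducer Smoothened, in 2 cerebellar regions, the hemispheres and the vermis. Both genotypes were sampled in both regions, which makes 4 groups with 3 arrays each (12 in all) and a pool of 5 mice behind each array. All mice were 8 days old and of a mixed background (C57BL/6 and Swiss Webster), and cells were separated on a Percoll density gradient. The SmoM2 mice were Atoh1-CreER/+; R26LSL-SmoM2-YFP and had 200 µg of tamoxifen per g at postnatal day 2, while the other mice are labelled wildtype, with tamoxifen and any Cre allele not given for them in the sources used here. The Atoh1 promoter drives CreER in the granule cell lineage, so the transgene of the model is directed to progenitors and not to microglia. Hemisphere and vermis arrays that carry the same replicate number deviated together in wild type and only weakly in SmoM2. Results of both regions are therefore not taken as independent of each other.

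Microglia are the resident macrophages of brain tissue. They arise from the yolk sac rather than from neural progenitors, depend on signalling through the receptor Csf1r and its ligands Csf1 and Il34, and survey tissue with purinergic and chemokine receptors. In the postnatal cerebellum they take up dying cells and debris, tag material with complement C1q and degrade it in lysosomes. In bulk RNA the cell that a transcript came from is not known, and fewer cells of a type and less RNA per cell cannot be told apart.

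The factor PU.1, which Spi1 encodes, governs myeloid gene expression and binds a purine-rich core. Promoter windows of 250 bases before to 50 after the start, from RefSeq (GRCm38.p6), were matched by symbol for 28 of the 36 members. The letters GAGGAA, searched on both strands (TTCCTC on the other), occurred in windows of 19 of the 28 (67.9%), against 31.3% of 27025 genes and 28.3% of 32851 windows of the same length. The longer GAGGAAGT (ACTTCCTC on the other strand), which contains the shorter one, occurred for 5 of the 28 (17.9%), namely C1qc, Cd53, Ctss, Ctsc and Apbb1ip, against 3.69% of genes and 3.2% of windows. Matches are letters in a window and were not tested as binding sites. The first 270 bases of the windows of Ctss, Cd53 and C1qc are shown because these are the members with the longer match that were lower in SmoM2 in both regions, and capitals mark every match to either motif on either strand. They lie at chr3:95526536-95526805 (plus strand, Ctss), chr3:106790130-106790399 (minus strand, Cd53) and chr4:136892895-136893164 (minus strand, C1qc).
Ctss: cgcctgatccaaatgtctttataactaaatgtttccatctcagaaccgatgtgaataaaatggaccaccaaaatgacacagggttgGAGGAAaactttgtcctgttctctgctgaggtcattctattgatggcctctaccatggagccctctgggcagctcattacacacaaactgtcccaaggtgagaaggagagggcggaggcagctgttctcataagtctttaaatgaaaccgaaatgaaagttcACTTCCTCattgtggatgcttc
Cd53: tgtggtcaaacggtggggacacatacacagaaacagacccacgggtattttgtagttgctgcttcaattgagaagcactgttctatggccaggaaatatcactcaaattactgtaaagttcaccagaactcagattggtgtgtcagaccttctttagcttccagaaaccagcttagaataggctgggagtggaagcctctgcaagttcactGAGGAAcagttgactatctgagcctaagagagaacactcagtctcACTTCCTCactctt
C1qc: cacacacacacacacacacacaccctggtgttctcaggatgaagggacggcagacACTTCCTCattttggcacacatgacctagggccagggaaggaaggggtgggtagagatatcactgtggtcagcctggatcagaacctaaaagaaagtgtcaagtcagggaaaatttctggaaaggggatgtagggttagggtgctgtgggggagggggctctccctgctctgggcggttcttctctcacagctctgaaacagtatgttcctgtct
The second marked stretch in Ctss and in Cd53 lies at the transcription start, and that in C1qc lies further upstream. Ctsc and Apbb1ip, with the same letters in their windows, did not pass in either region.

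Levels are log2 values made by RMA (robust multi-array average), so a difference of 1 is a 2-fold change, and a value cannot be compared between probe sets of different genes. Array medians were 4.81 to 4.87 and lower quartiles 3.24 to 3.42, and the standard deviation (SD) of a gene within a group had a median of 0.13. Of the members, 10 had a mean below the lowest array median, and Cd84 lay below the lowest lower quartile on 12 of 12 arrays, where RMA compresses differences. Wild type hemisphere replicate 3 stood apart in the spiked controls, with the lowest bioB (6.98, against a group mean of 8.11 ± 0.98 SD, n = 3) and the lowest dap (7.92, against 8.84 ± 0.87), and members' results that depend on it are also given without it. All wild type hemisphere arrays were low in dap (7.92 to 9.63). The lowest dap of any other group was 9.9, in wild type vermis. Leaving out replicate 3 does not remove that difference between groups, and its part in the results was not tested. The Actb 3′ minus 5′ difference, which moves with RNA integrity, was 0.64 ± 0.17 in the wild type hemisphere, 0.89 ± 0.01 in the wild type vermis and, in SmoM2, 0.98 ± 0.11 (hemisphere) and 0.96 ± 0.10 (vermis; SD, n = 3 each), and its part in the results was not tested. Gli1, a hedgehog target that reports the transgene, was higher in SmoM2 in both regions (1.68 ± 0.14 and 1.50 ± 0.14), and so was the progenitor factor Atoh1 (0.82 ± 0.12 and 0.85 ± 0.12). Both come from a list of 12 granule progenitor markers that did not move together. In that list 5 were higher in each region, 4 (hemisphere) and 3 (vermis) were lower, and the medians were 0.03 and 0.19. Of all genes, 7.62% and 7.56% were higher and 7.18% and 9.46% lower.

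In each region, taken alone, most of the microglia and macrophage genes passed as lower in SmoM2 than in wild type preparations. Under limma with Benjamini-Hochberg adjustment over all genes (adjusted p under 0.05), the hemisphere had 21 members that fell, 1 that rose (Sall1) and 14 that did not pass. The vermis counts were the same, with Olfml3 as the member that rose. Of all genes tested, 14.8% passed in the hemisphere (7.18% lower, 7.62% higher) and 17% in the vermis (9.46% lower, 7.56% higher), against 58.3% of members lower in each region. The median log2 difference of the 36 members was -0.70 in the hemisphere and -0.54 in the vermis, against -0.05 and -0.06 over all genes. Falls of 2-fold or more were seen in 6 members (hemisphere) and 3 members (vermis).

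The same 16 members fell in both regions: Csf1r, Cx3cr1, C1qa, C1qc, P2ry12, Siglech, Fcrls, Tyrobp, Fcer1g, Fcgr3, Cd14, Ly86, Cd53, Ctss, Lgmn and Cd68. A further 5 passed as lower in the hemisphere alone (Csf2ra, Csf3r, C1qb, Trem2, Lyz2) and 5 in the vermis alone (P2ry13, Tmem119, Selplg, Ptprc, Laptm5), a split that no test of the difference between regions bears out. For 8 members neither comparison passed. The 3 SmoM2 arrays lay below the 3 wild type arrays, with no overlap, for 24 members (66.7%) in the hemisphere and 25 (69.4%) in the vermis, where all genes gave 18.3% and 22.5%. When each array was left out in turn, 16 of 22 calls stayed in the hemisphere and 10 of 22 in the vermis in all 12 fits. Calls in both regions stayed in all 12 fits for 9 members (Csf1r, C1qa, C1qc, Siglech, Fcrls, Fcgr3, Ly86, Ctss and Lgmn). The number of members called in the vermis went from 22 to 14 without SmoM2 vermis replicate 2 and to 11 without SmoM2 vermis replicate 3. Of all genes, 9.65% and 12.2% passed there in those fits, against 17% in the main fit. Without wild type hemisphere replicate 3, 23 members were lower and 0 higher in the hemisphere, where 11.5% of all genes passed.

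**Figure D1:**
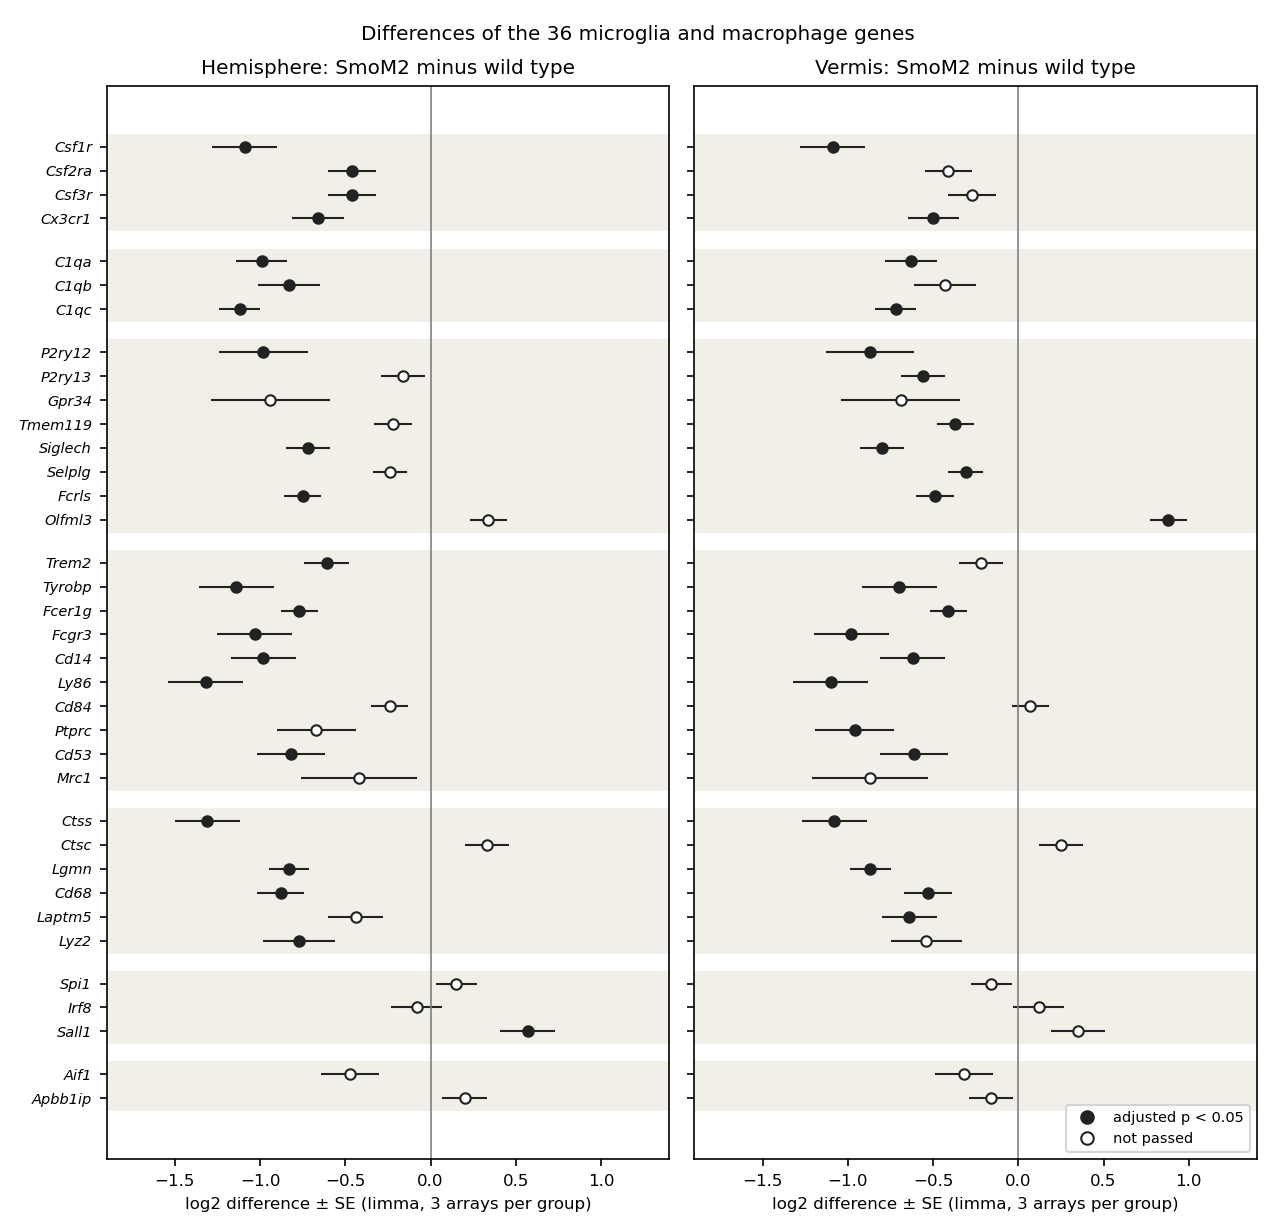
Log2 difference between SmoM2 and wild type for each of the 36 members, grouped by role, in the hemisphere and the vermis. Points are fitted differences, bars are standard errors, filled points passed at an adjusted p under 0.05, and the vertical line is no difference. Most points lie left of the line in both regions, and Olfml3, Sall1 and Ctsc lie to the right of it in both.

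Among receptors for growth factors, cytokines and chemokines, 4 of 4 fell in the hemisphere, and the vermis had 2 of 4. Csf1r, the receptor on which microglia depend for survival, read 8.78, 8.74 and 8.75 in wild type hemisphere and 7.99, 7.82 and 7.19 in SmoM2 hemisphere (replicates 1, 2 and 3, the order used throughout). In the vermis it read 8.96, 8.81 and 9.06 in wild type and 8.19, 7.87 and 7.49 in SmoM2. All 6 SmoM2 arrays lay below all 6 wild type arrays. The fall was 1.09 ± 0.19 (SE) on the log2 scale in each region, or 2.13-fold lower in the hemisphere (limma adjusted p = 0.00162 and 0.00152). Its other probe sets fell by 0.79 and 0.57 in the hemisphere and by 0.92 and 0.44 in the vermis, all past the threshold.

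Cx3cr1, the receptor for neuronal fractalkine, read 6.00, 5.87 and 5.78 against 5.49, 5.26 and 4.92 in the hemisphere and 6.03, 5.57 and 5.85 against 5.44, 5.31 and 5.21 in the vermis, wild type first. The groups did not overlap in either region. It fell by 0.66 ± 0.15 (limma adjusted p = 0.00858) and 0.50 ± 0.15 (adjusted p = 0.0345). The vermis call ended without wild type vermis replicate 1 (0.101) or 3 (0.0953), without any SmoM2 vermis array (0.0562 to 0.102), with median centring (0.0519) and with the mean of its probe sets (0.103, at -0.25), since its second, dimmer probe set differed by -0.27 and 0.00.

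Csf2ra, a chain of the GM-CSF receptor, read 4.60, 4.47 and 4.66 in wild type and 4.15, 3.94 and 4.27 in SmoM2 hemisphere, with no overlap. It fell by 0.46 ± 0.14 there (limma adjusted p = 0.0403), a call that ended without any hemisphere array or without SmoM2 vermis replicate 1 (0.0505 to 0.136) and with repeated quantile normalization (0.0788). In the vermis its difference was -0.41 ± 0.14 (adjusted p = 0.0559), which passed without wild type vermis replicate 2 (0.0184) and with the mean of both probe sets (0.00313). Csf3r, the G-CSF receptor of the neutrophil lineage, read 3.86, 4.50 and 4.40 against 3.86, 3.76 and 3.75 in the hemisphere, where the groups met at 3.86. It fell by 0.46 ± 0.14 (adjusted p = 0.0445), and the call ended without any array other than wild type hemisphere replicate 1 (0.0525 to 0.17), with quantile normalization (0.0596), under a random block for the pool (0.0504) and with the compared groups alone (0.11). The vermis difference of Csf3r was -0.27 (adjusted p = 0.208).

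**Figure D2:**
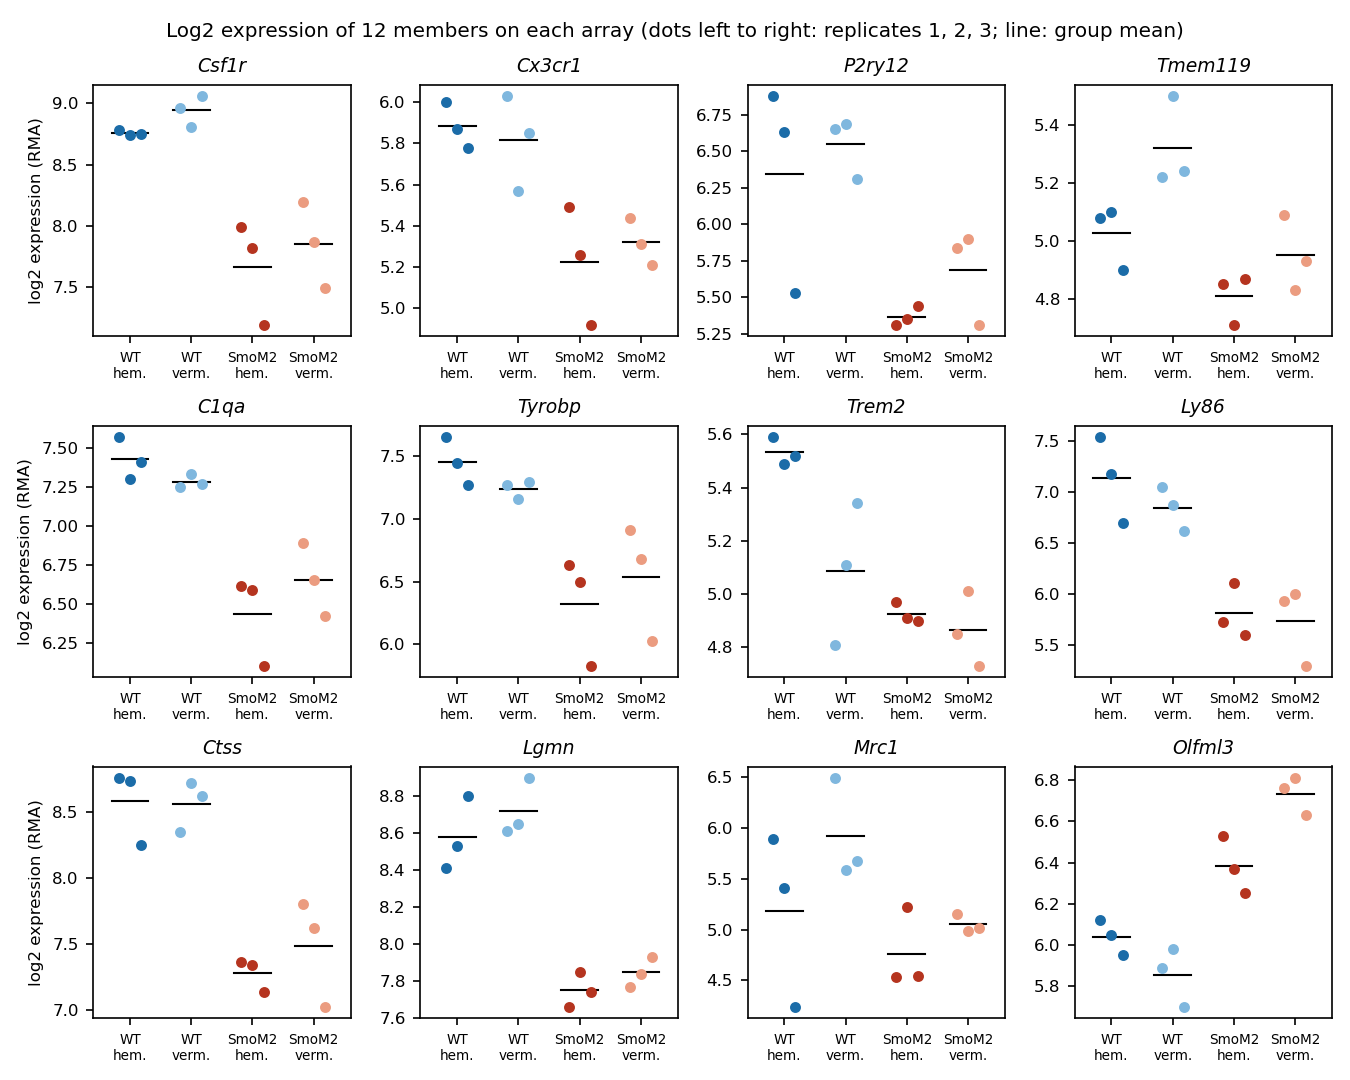
Log2 level of 12 members on each of the 12 arrays, in panels of their own with separate vertical axes. Dots are arrays (replicates 1, 2 and 3 from left to right) and lines are group means. Csf1r, C1qa, Ctss and Ly86 show all SmoM2 arrays below all wild type arrays, Mrc1 overlaps in the hemisphere, and Olfml3 is higher on SmoM2 arrays.

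The 3 chains of C1q, the first component of the classical complement pathway, fell together in the hemisphere. C1qa read 7.57, 7.30 and 7.41 in wild type and 6.61, 6.59 and 6.10 in SmoM2 hemisphere, and 7.25, 7.33 and 7.27 against 6.89, 6.65 and 6.42 in the vermis. C1qc read 6.38, 6.05 and 6.39 against 5.23, 5.18 and 5.07, and 6.21, 5.95 and 6.09 against 5.40, 5.51 and 5.19. Neither gene had a SmoM2 array at or above a wild type array. C1qc fell by 1.12 ± 0.12 in the hemisphere (2.17-fold lower, limma adjusted p = 2.55e-05) and by 0.72 ± 0.12 in the vermis (1.64-fold lower, adjusted p = 0.00116). C1qa fell by 0.99 ± 0.15 (adjusted p = 0.000435) and 0.63 ± 0.15 (adjusted p = 0.0107).

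C1qb read 7.32, 6.79 and 7.01 against 6.38, 6.50 and 5.76 in the hemisphere and 6.96, 6.86 and 7.05 against 6.68, 6.54 and 6.35 in the vermis. The arrays of the groups were apart in both regions. The fall passed in the hemisphere (0.83 ± 0.18, limma adjusted p = 0.00674), and in the vermis the difference was -0.43 ± 0.18 (adjusted p = 0.109). That vermis difference passed with repeated quantile normalization (0.0415) and with the compared groups alone (0.0262). The second-brightest probe set of C1qb differed by -1.22 (hemisphere) and -0.77 (vermis) and passed in both (adjusted p = 0.00283 and 0.0375 over all probe sets with 1 symbol). The third differed by -0.98 (0.0299) and -0.64 (0.133).

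Genes of the homeostatic microglial surface were lower in SmoM2 for 3 of 8 in the hemisphere and 6 of 8 in the vermis. P2ry12, a purinergic receptor that guides microglial processes, read 6.88, 6.63 and 5.53 in wild type and 5.31, 5.35 and 5.44 in SmoM2 hemisphere. In the vermis it read 6.65, 6.69 and 6.31 against 5.84, 5.90 and 5.31. SmoM2 arrays were lower throughout, with a narrow gap in the hemisphere at wild type replicate 3. It fell by 0.98 ± 0.26 (limma adjusted p = 0.0235) and 0.87 ± 0.26 (adjusted p = 0.0374). In the hemisphere P2ry12 lost its call without wild type hemisphere replicate 1 or 2 or any SmoM2 hemisphere array (0.0562 to 0.0958) and with the compared groups alone (0.0528). The vermis call ended without any vermis array or without SmoM2 hemisphere replicate 2 or 3 (0.0501 to 0.126).

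Siglech, a sialic acid-binding lectin of microglia, read 5.45, 5.58 and 5.48 against 4.67, 4.96 and 4.71 in the hemisphere and 5.16, 5.42 and 5.31 against 4.59, 4.22 and 4.67 in the vermis. Fcrls, an Fc receptor-like gene used as a microglial marker, read 6.80, 6.69 and 6.53 against 6.09, 5.86 and 5.81, and 6.40, 6.37 and 6.39 against 6.07, 5.82 and 5.80. The groups of both genes were apart in both regions. Siglech fell by 0.72 ± 0.13 (limma adjusted p = 0.00166) and 0.80 ± 0.13 (adjusted p = 0.000676). Fcrls fell by 0.75 ± 0.11 (adjusted p = 0.000465) and 0.49 ± 0.11 (adjusted p = 0.00955).

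Tmem119, a membrane protein used to tell microglia from other macrophages, read 5.08, 5.10 and 4.90 against 4.85, 4.71 and 4.87 in the hemisphere and 5.22, 5.50 and 5.24 against 5.09, 4.83 and 4.93 in the vermis. Its groups were close but did not overlap. The difference was -0.22 ± 0.11 in the hemisphere (limma adjusted p = 0.204) and a fall of 0.37 ± 0.11 in the vermis (adjusted p = 0.0372). The vermis call ended without wild type vermis replicate 2 (0.152) or 3 (0.0584), SmoM2 hemisphere replicate 3 (0.051) or SmoM2 vermis replicate 2 (0.144) or 3 (0.0903), and also with median centring (0.0605), the compared groups alone (0.0511) and trended moderation (0.0674).

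P2ry13, a further purinergic receptor, read 4.81, 4.64 and 4.56 against 4.31, 4.15 and 3.88 in the vermis and fell by 0.56 ± 0.13 there (limma adjusted p = 0.0115, or 0.0531 without SmoM2 vermis replicate 3). In the hemisphere its arrays overlapped (-0.16 ± 0.13, adjusted p = 0.43). Selplg, the P-selectin ligand, read 5.06, 5.32 and 5.27 against 4.97, 4.78 and 4.96 in the vermis and fell by 0.31 ± 0.10 (adjusted p = 0.0476). That call ended without any array other than wild type hemisphere replicates 1 and 3 and wild type vermis replicate 1 (0.0522 to 0.18), and under median centring (0.0784), quantile normalization (0.0593), the random block (0.0505), the compared groups alone (0.0707) and trended moderation (0.0989). In the hemisphere Selplg differed by -0.24 (adjusted p = 0.127). Gpr34, a lysophosphatidylserine receptor, ran from 3.82 to 5.55 in wild type hemisphere, the widest spread of any member there (SD 0.86), and its differences of -0.94 ± 0.35 and -0.69 ± 0.35 did not pass (adjusted p = 0.0838 and 0.182). Without wild type hemisphere replicate 3 the hemisphere difference of Gpr34 was -1.37 and passed (0.0109).

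Olfml3, a secreted olfactomedin-like protein, moved the other way. It read 6.12, 6.05 and 5.95 in wild type and 6.53, 6.37 and 6.25 in SmoM2 hemisphere, and 5.89, 5.98 and 5.70 against 6.76, 6.81 and 6.63 in the vermis. SmoM2 arrays were the higher ones in both regions. It rose by 0.88 ± 0.11 in the vermis (1.84-fold, limma adjusted p = 8.82e-05), and its hemisphere difference was 0.34 ± 0.11 (adjusted p = 0.0519). The hemisphere difference passed without wild type hemisphere replicate 1 (0.0387) or wild type vermis replicate 3 (0.0464), under the random block for the pool (0.0479), with median centring (0.0492), among brighter genes alone (0.0305) and with the mean of probe sets for every gene (0.04).

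Among innate immune receptors and adaptors, 7 of 10 fell in each region. Tyrobp (DAP12), an adaptor that signals for Trem2 and other receptors, read 7.65, 7.44 and 7.27 against 6.63, 6.50 and 5.83 in the hemisphere and 7.27, 7.16 and 7.29 against 6.91, 6.68 and 6.03 in the vermis. No SmoM2 array reached a wild type array. It fell by 1.14 ± 0.22 (2.20-fold lower, limma adjusted p = 0.00299) and 0.70 ± 0.22 (adjusted p = 0.0414). The vermis call ended without any wild type vermis array, replicate 2 of either hemisphere group or SmoM2 vermis replicate 2 or 3 (0.0503 to 0.151) and with median centring (0.0543). Without SmoM2 vermis replicate 3 the vermis difference was -0.45.

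Trem2, a lipid-sensing receptor of phagocytic microglia, read 5.59, 5.49 and 5.52 against 4.97, 4.91 and 4.90 in the hemisphere, and 4.81, 5.11 and 5.34 against 4.85, 5.01 and 4.73 in the vermis. The groups were apart in the hemisphere and overlapped in the vermis. It fell by 0.61 ± 0.13 in the hemisphere (limma adjusted p = 0.00504), and the vermis difference was -0.22 ± 0.13 (adjusted p = 0.233). Its dimmer probe set differed by -0.27 (adjusted p = 0.25) and -0.08 (adjusted p = 0.738) and did not pass.

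The Fc receptor genes Fcer1g and Fcgr3 encode a shared signalling chain and an activating IgG receptor. Fcer1g read 6.15, 6.33 and 6.04 against 5.29, 5.51 and 5.41 in the hemisphere, and 5.87, 5.71 and 5.83 against 5.35, 5.48 and 5.34 in the vermis. Fcgr3 read 6.83, 6.51 and 6.20 against 5.73, 5.57 and 5.16, and 6.62, 6.37 and 6.29 against 5.93, 5.44 and 4.96. Both genes had groups that did not overlap. Fcer1g fell by 0.77 ± 0.11 (limma adjusted p = 0.000207) and 0.41 ± 0.11 (adjusted p = 0.0164), the second ending without wild type vermis replicate 3 (0.0532) or SmoM2 vermis replicate 1 (0.0624) or 3 (0.0557). Fcgr3 fell by 1.03 ± 0.22 (adjusted p = 0.00683) and 0.98 ± 0.22 (adjusted p = 0.00861).

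Ly86 (MD-1), a partner of a Toll-like receptor homologue, had the largest fall of any member in the hemisphere. It read 7.54, 7.18 and 6.70 in wild type and 5.73, 6.11 and 5.60 in SmoM2 hemisphere, and 7.05, 6.87 and 6.62 against 5.93, 6.00 and 5.30 in the vermis. SmoM2 values all lay under wild type values. The falls were 1.32 ± 0.22 (2.50-fold lower, limma adjusted p = 0.00106) and 1.10 ± 0.22 (2.15-fold lower, adjusted p = 0.00393). Cd14, a co-receptor for bacterial lipopolysaccharide, read 6.25, 6.29 and 5.73 against 5.23, 4.81 and 5.27, and 6.02, 6.50 and 5.76 against 5.62, 5.46 and 5.33. Its groups did not overlap. It fell by 0.98 ± 0.19 (adjusted p = 0.00353) and 0.62 ± 0.19 (adjusted p = 0.0434), and the vermis call ended without wild type vermis replicate 1 or 2, SmoM2 hemisphere replicate 1 or 3 or any SmoM2 vermis array (0.0522 to 0.182) and with median centring (0.0572).

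Ptprc (CD45), a phosphatase of all leukocytes, read 5.38, 5.11 and 4.41 against 4.32, 4.30 and 4.28 in the hemisphere and 5.46, 4.98 and 4.85 against 4.49, 4.15 and 3.77 in the vermis. Its groups were apart, by little in the hemisphere. It fell by 0.96 ± 0.23 in the vermis (limma adjusted p = 0.012, or 0.0528 without SmoM2 vermis replicate 3), and the hemisphere difference of -0.67 ± 0.23 (adjusted p = 0.0663) passed without wild type hemisphere replicate 3 (0.00843). Cd53, a tetraspanin of leukocytes, read 6.74, 6.50 and 5.74 against 5.57, 5.60 and 5.36, and 6.57, 6.46 and 6.28 against 6.00, 5.69 and 5.80. It was lower on each SmoM2 array than on each wild type array of its region. It fell by 0.82 ± 0.20 (adjusted p = 0.0127) and 0.61 ± 0.20 (adjusted p = 0.0492). Cd53 lost its hemisphere call without wild type hemisphere replicate 2 (0.0571) or SmoM2 hemisphere replicate 3 (0.0565), and its vermis call without any array other than wild type hemisphere replicates 1 and 3 (0.0532 to 0.157), with median centring (0.0683) and with the mean of its probe sets (0.1). That mean put its differences at -0.44 and -0.33, and those of Ptprc in the vermis at -0.53, because the second probe set of each gene was near the floor of the arrays.

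Mrc1 (CD206), the mannose receptor of perivascular and meningeal macrophages, did not pass. It read 5.89, 5.41 and 4.24 against 4.53, 5.22 and 4.54 in the hemisphere, where the groups overlapped, and 6.49, 5.59 and 5.67 against 5.15, 4.99 and 5.02 in the vermis, where they did not. The differences were -0.42 ± 0.34 (limma adjusted p = 0.424) and -0.87 ± 0.34 (adjusted p = 0.0916). The hemisphere difference was -0.88 and passed without wild type hemisphere replicate 3 (0.047). The vermis difference passed without wild type hemisphere replicate 1 (0.0448) or 3 (0.0224), arrays that enter it only through the shared estimate of the spread, and with the compared groups alone (0.0166). Cd84, a self-binding receptor of leukocytes, lay between 2.76 and 3.20 on all arrays and differed by -0.24 and 0.07 (adjusted p = 0.163 and 0.694).

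**Figure D3:**
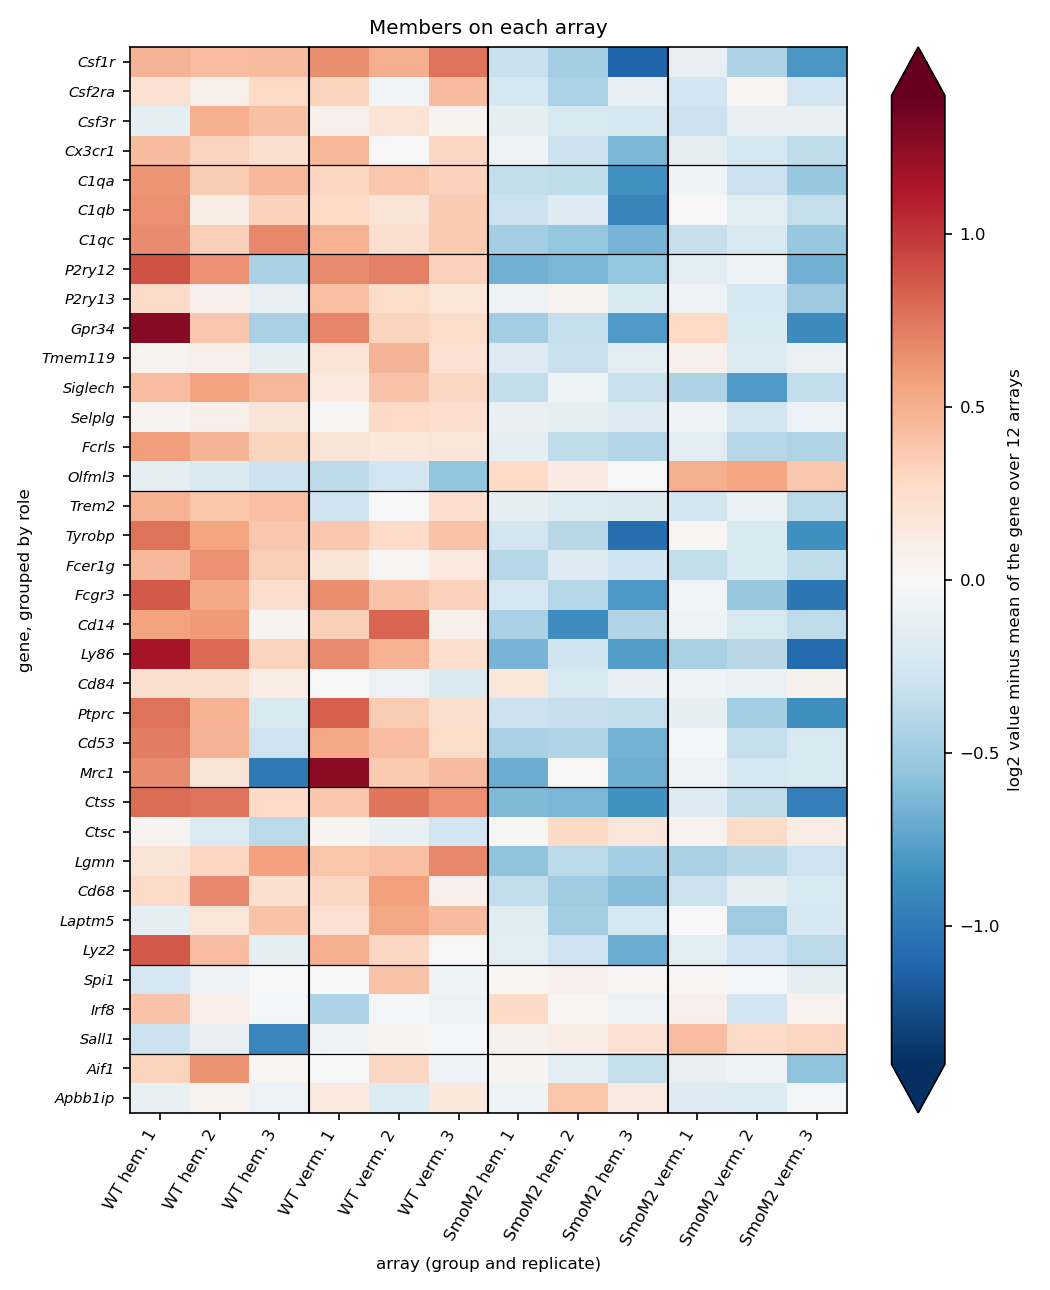
Heat map of the 36 members (rows, grouped by role) on the 12 arrays (columns). Colour is the log2 level minus the gene's mean over the 12 arrays. Most rows are above their mean on the 6 wild type arrays and below it on the 6 SmoM2 arrays, with Olfml3 and Sall1 reversed.

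Of the 6 lysosomal and phagocytic genes, 4 fell in each region. Ctss (cathepsin S), a protease that processes antigen and marks microglia among brain cells, read 8.76, 8.74 and 8.25 against 7.36, 7.34 and 7.13 in the hemisphere and 8.35, 8.72 and 8.62 against 7.80, 7.62 and 7.02 in the vermis. Lgmn (legumain), an asparaginyl endopeptidase, read 8.41, 8.53 and 8.80 against 7.66, 7.85 and 7.74, and 8.61, 8.65 and 8.90 against 7.77, 7.84 and 7.93. All 6 SmoM2 arrays lay below all 6 wild type arrays for both genes. Ctss fell by 1.31 ± 0.19 (2.48-fold lower, limma adjusted p = 0.000331) and 1.08 ± 0.19 (2.12-fold lower, adjusted p = 0.00137). Lgmn fell by 0.83 ± 0.12 (adjusted p = 0.000321) and 0.87 ± 0.12 (adjusted p = 0.00019).

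Cd68, a lysosomal glycoprotein of phagocytes, read 5.57, 5.97 and 5.52 against 4.95, 4.80 and 4.69, and 5.59, 5.87 and 5.37 against 5.00, 5.16 and 5.07. The groups were apart in both regions. It fell by 0.88 ± 0.14 in the hemisphere (limma adjusted p = 0.000919) and by 0.53 ± 0.14 in the vermis (adjusted p = 0.0217), and the vermis call ended without wild type vermis replicate 2 (0.0995) or SmoM2 vermis replicate 1 (0.0793) or 3 (0.055). Lyz2 (lysozyme M), an antibacterial enzyme abundant in macrophages and neutrophils, read 7.19, 6.77 and 6.21 against 6.18, 6.04 and 5.64 in the hemisphere and 6.84, 6.62 and 6.33 against 6.18, 6.04 and 5.95 in the vermis. Its gap in the hemisphere was 6.21 against 6.18. It fell by 0.77 ± 0.21 there (adjusted p = 0.0257), a call that ended without wild type hemisphere replicate 1 (0.0608) or 2 (0.0767), SmoM2 hemisphere replicate 2 (0.0506) or 3 (0.112), and with the compared groups alone (0.0631). The vermis difference of -0.54 ± 0.21 (adjusted p = 0.0943) passed without wild type hemisphere replicate 1 (0.0428) or 3 (0.038), with quantile normalization (0.044) and with the compared groups alone (0.0223).

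Laptm5, a lysosomal membrane protein of blood-derived cells, read 6.64, 6.97 and 6.87 against 6.42, 5.93 and 6.19 in the vermis, with no overlap, and fell by 0.64 ± 0.16 (limma adjusted p = 0.0131, or 0.058 and 0.0679 when replicate 2 of the wild type or of the SmoM2 vermis was left out). The mean of its 5 probe sets gave -0.33 in the vermis. Its dimmer probe sets differed there by -0.32 to -0.08, and none passed (adjusted p = 0.15 to 0.687). In the hemisphere Laptm5 read 6.29, 6.59 and 6.82 against 6.26, 5.94 and 6.18 and differed by -0.44 (adjusted p = 0.0744), passing without wild type hemisphere replicate 1 (0.0187) or with the mean of its probe sets (0.0145). Ctsc (cathepsin C), which activates granule proteases, was the lysosomal gene that did not fall. It lay between 6.54 and 6.95 in wild type and between 6.93 and 7.20 in SmoM2, and its differences of 0.33 and 0.25 did not pass (adjusted p = 0.0946 and 0.176), although the hemisphere one passed without wild type hemisphere replicate 1 (0.0261).

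None of the 3 transcription factors fell. Spi1, which encodes PU.1, read 4.55, 4.71 and 4.79 against 4.82, 4.86 and 4.81 in the hemisphere and 4.78, 5.19 and 4.73 against 4.81, 4.77 and 4.65 in the vermis. Its values lay near the array medians and its differences of 0.15 ± 0.12 and -0.16 ± 0.12 did not pass (limma adjusted p = 0.438 and 0.39). Irf8, an interferon regulatory factor that acts with PU.1, lay between 3.67 and 4.50 over all groups and differed by -0.08 and 0.12 (adjusted p = 0.757 and 0.589).

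Sall1, a zinc-finger factor of microglial identity that neural progenitors also express, read 5.43, 5.62 and 4.82 in wild type and 5.79, 5.84 and 5.95 in SmoM2 hemisphere. In the vermis it read 5.68, 5.77 and 5.70 against 6.16, 6.00 and 6.03. SmoM2 arrays were higher with no overlap, and the lowest wild type value was that of hemisphere replicate 3. It rose by 0.57 ± 0.16 in the hemisphere (limma adjusted p = 0.0264), and the vermis difference was 0.35 ± 0.16 (adjusted p = 0.144). Sall1 lost its hemisphere call without wild type hemisphere replicate 3 (difference 0.34, adjusted p = 0.0592), without any SmoM2 hemisphere array (0.0584 to 0.0923), with the compared groups alone (0.0838) and with the mean of its probe sets (0.24, adjusted p = 0.113). The vermis difference passed without wild type hemisphere replicate 3 (0.0231) and with the compared groups alone (0.0331). The second, dimmer probe set of Sall1 differed by -0.09 and -0.11 and did not pass.

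Neither regulator of actin and integrins passed. Aif1 (IBA1), the actin-bundling protein stained to show microglia, read 4.09, 4.40 and 3.80 against 3.81, 3.62 and 3.44 in the hemisphere and 3.78, 4.06 and 3.70 against 3.67, 3.71 and 3.21 in the vermis. The groups overlapped in both regions at values below the array median. Its differences were -0.47 ± 0.17 (limma adjusted p = 0.0772) and -0.32 ± 0.17 (adjusted p = 0.208), and the first passed without wild type hemisphere replicate 3 (0.0369). Apbb1ip (RIAM), an integrin activator, lay between 4.20 and 4.78 and differed by 0.20 and -0.16 (adjusted p = 0.312 and 0.417).

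No member passed the threshold between hemisphere and vermis within a genotype. Under limma 0 of 36 passed in wild type and 0 of 36 in SmoM2, where 0.187% and 0.0605% of all genes passed, and at an unadjusted p under 0.05 there were 8 and 3 members, against 1149 and 661 of all 18194 genes. The lowest adjusted p of a member in wild type was 0.273, for Trem2, which was 0.45 ± 0.13 higher in the hemisphere. In the interaction, which asks whether the SmoM2 difference is unequal in the regions, 0 members and 0% of all genes passed, with 4 members and 564 genes in all at an unadjusted p under 0.05. Those were Olfml3 (-0.53 ± 0.16, unadjusted p = 0.00409), Fcer1g (-0.35 ± 0.15), C1qc (-0.40 ± 0.17) and Trem2 (-0.39 ± 0.18), where below 0 means a lower SmoM2 difference in the hemisphere. Of the 16 members lower in both regions, 13 had the larger fall in the hemisphere, and the interaction of 0 of them passed. Those 16 were picked by their falls, so their count has no like share over all genes. Of all 36 members, 23 had an interaction below 0 and 13 above 0, and over all genes 47.7% lay below 0. Members share the same arrays, so these are not separate observations. The median interaction of the 36 members was -0.18, or -0.03 without wild type hemisphere replicate 1. The counts of members that passed stayed at 0 in both region comparisons and the interaction under each of the other settings that could be fitted.

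Replicate arrays of a group differed in the level of the members. Replicate 3 gave the lowest value of its group for 23 of 36 members in wild type hemisphere and 16 in wild type vermis. In the SmoM2 groups it did so for 23 (hemisphere) and 22 (vermis). The same counts were not made over all genes, so they are not read as a trait of the members. The mean deviation of the 36 members from their own averages in wild type was 0.42, 0.33 and 0.07 for the hemisphere arrays and 0.29, 0.27 and 0.20 for those of the vermis. In SmoM2 it was -0.24, -0.25 and -0.42 for hemisphere arrays and -0.09, -0.21 and -0.37 for vermis arrays. The lowest wild type array was thus still above the highest SmoM2 array. The median SD of members in a group was 0.15 to 0.20, against 0.11 to 0.18 for all genes. The widest spreads of a member in a group were those of Gpr34 (SD 0.86), Mrc1 (0.85) and P2ry12 (0.71), all in wild type hemisphere, where replicate 3 was the lowest array for each.

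Of 41 further macrophage and microglia genes measured from a list of 44, 13 were lower and 2 higher in each region, with medians of -0.31 and -0.33. The lower share was 31.7% in each region, where 7.18% (hemisphere) and 9.46% (vermis) of all genes were lower. Adgre1 (F4/80), a macrophage surface receptor, read 5.68, 5.57 and 5.27 against 4.47, 4.74 and 4.72 in the hemisphere and 5.97, 5.82 and 5.56 against 5.05, 4.66 and 4.73 in the vermis. It fell by 0.86 ± 0.15 (limma adjusted p = 0.00113) and 0.97 ± 0.15 (adjusted p = 0.0004), with no overlap. Both higher genes, Gas6 and Pros1, encode ligands of the TAM family of phagocytic receptors, to which Mertk and Axl belong. Mertk fell by 0.60 ± 0.11 (adjusted p = 0.0017) and 0.57 ± 0.11 (adjusted p = 0.00253). Gas6 read 5.59, 5.37 and 5.91 against 8.34, 8.53 and 8.48 in the hemisphere and 6.22, 6.18 and 6.16 against 8.48, 8.71 and 8.66 in the vermis, so it was 7.09-fold and 5.39-fold higher in SmoM2 (adjusted p = 5.32e-09 and 2.53e-08), while the mean of its probe sets gave log2 differences of 1.41 and 1.17. Pros1, named after its values were seen, rose by 0.61 ± 0.12 (adjusted p = 0.00252) and 0.42 ± 0.12 (adjusted p = 0.0225), and its vermis call ended without wild type vermis replicate 3 (0.103), without any SmoM2 vermis array (0.0558 to 0.0692) and with quantile normalization (0.0698). Axl, also named after its values were seen, differed by 0.04 and -0.25 (adjusted p = 0.907 and 0.427).

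Ligands that act on microglia gave 2 lower and 0 higher genes of 9 in the hemisphere and 4 lower and 0 higher in the vermis. These lower shares were 22.2% and 44.4%, against 7.18% and 9.46% of all genes. The ligands of Csf1r did not pass in either region. Csf1 differed by 0.19 ± 0.11 (limma adjusted p = 0.258) and -0.07 ± 0.11 (adjusted p = 0.671), and Il34 by -0.27 ± 0.17 (adjusted p = 0.288, or -0.52 and 0.0165 without SmoM2 hemisphere replicate 2) and -0.19 ± 0.17 (adjusted p = 0.446). The Cx3cr1 ligand Cx3cl1 differed by -0.17 and -0.08 and Tgfb1, a cytokine that maintains microglial identity, by -0.12 and -0.25, and neither passed. Cd200 and Cd47, neuronal signals that restrain microglia, fell in both regions. The other ligands lower in the vermis were Csf3, by 0.44 (adjusted p = 0.0114), and Apoe, by 0.72 (adjusted p = 0.0411). The Apoe call ended without any vermis array or SmoM2 hemisphere replicate 3 (0.0519 to 0.145) and with median centring (0.0551). In the hemisphere their adjusted p were 0.0589 and 0.0533; Csf3 passed there without wild type hemisphere replicate 1 (0.0283) or wild type vermis replicate 3 (0.0465), and Apoe without replicate 2 of either hemisphere group (0.0113 and 0.0474). Cd47 fell by 0.54 ± 0.10 (adjusted p = 0.00242) and 0.58 ± 0.10 (adjusted p = 0.00138), and Cd200 by 0.55 ± 0.15 (adjusted p = 0.0281) and 0.90 ± 0.15 (adjusted p = 0.00122). The hemisphere call of Cd200 ended without wild type hemisphere replicate 1 (0.0672), SmoM2 hemisphere replicate 1 (0.127) or 3 (0.0813) and with the compared groups alone (0.0769).

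**Figure D4:**
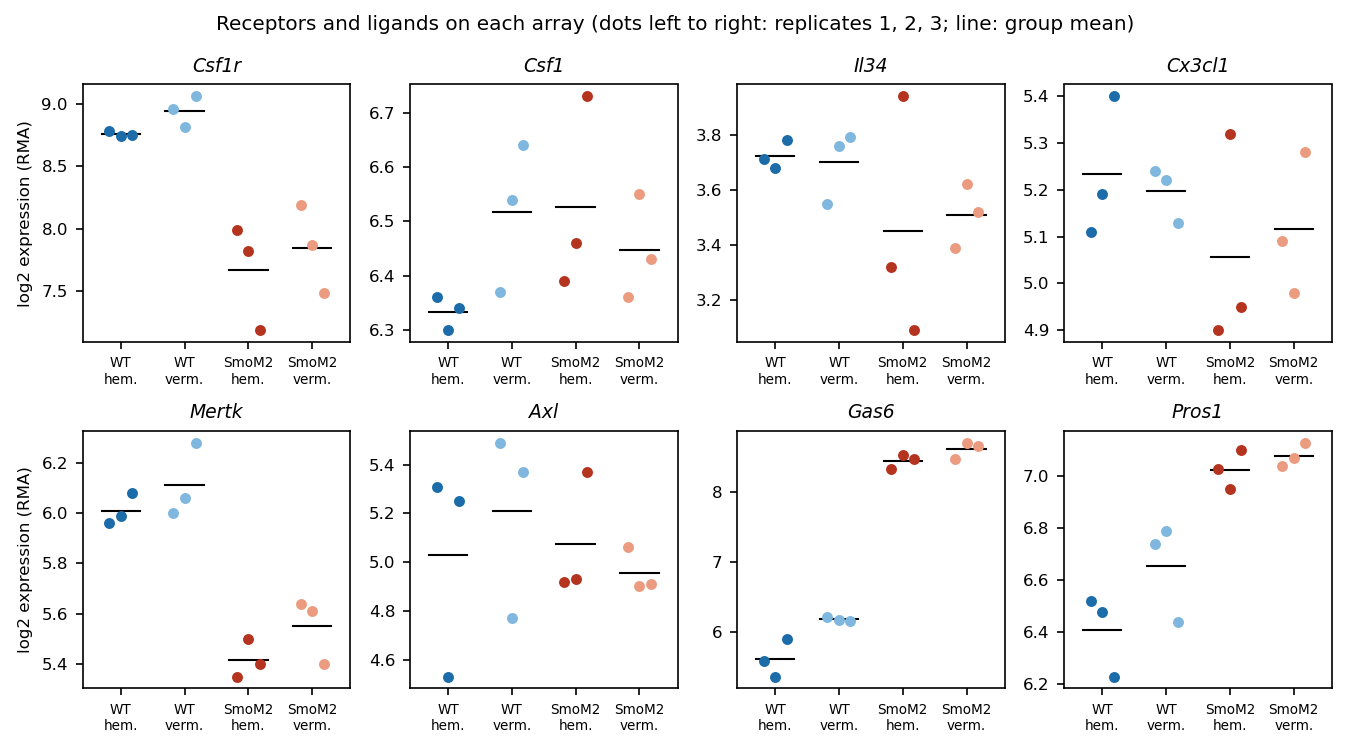
Log2 level of the receptors Csf1r, Mertk and Axl and of the ligands Csf1, Il34, Cx3cl1, Gas6 and Pros1 on each array, with separate vertical axes. Dots are replicates 1, 2 and 3 from left to right and lines are group means. Csf1r and Mertk are lower and Gas6 and Pros1 higher on all SmoM2 arrays than on all wild type arrays of the same region, while Il34, Cx3cl1 and Axl overlap.

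Of 15 genes measured that mark microglia of proliferating and myelinating regions in young brain, the hemisphere had 6 that fell and 1 that rose, and the vermis 5 and 1. The shares that fell were 40.0% and 33.3%, where 7.18% and 9.46% of all genes were lower. The chemokines Ccl3 and Ccl4 fell by 0.78 ± 0.16 and 0.72 ± 0.13 in the hemisphere (limma adjusted p = 0.00464 and 0.00178) and by 0.70 ± 0.16 and 0.57 ± 0.13 in the vermis (adjusted p = 0.00913 and 0.00828). Lgals1 (galectin-1), which many cell types make, rose by 1.01 ± 0.10 and 0.84 ± 0.10 (adjusted p = 8.31e-06 and 4.13e-05). Of 15 border macrophage genes, the hemisphere had 1 lower (Cd209f) and the vermis 3 (Cd209f, Stab1 and Cd74), with medians of -0.30 and -0.40. The Cd209f call ended without wild type hemisphere replicate 2 or SmoM2 hemisphere replicate 2 or 3 (0.0757 to 0.0834), and in the vermis without wild type vermis replicate 1 or 2 or SmoM2 vermis replicate 2 (0.0508 to 0.0636). Cd74 no longer passed without wild type vermis replicate 2 or SmoM2 vermis replicate 1 or 2 (0.0813 to 0.123), and Stab1 without any array other than wild type hemisphere replicates 1 and 3 (0.05 to 0.173; the difference was -0.27 without wild type vermis replicate 1), under the random block (0.055), median centring (0.0642), quantile normalization (0.0515), the compared groups alone (0.0663) and trended moderation (0.0644). Their mean deviation per array ran from -0.14 to 0.25 and from -0.05 to 0.33 in the wild type groups and from -0.25 to -0.10 and from -0.16 to -0.04 in SmoM2. Neutrophil and monocyte markers gave 1 lower gene of 9 in the hemisphere (Plac8) and 0 in the vermis. That was 11.1% in the hemisphere, against 7.18% of all genes. Plac8 lost the call without replicate 2 or 3 of either hemisphere group (0.0647 to 0.116). In the vermis 1 marker had an unadjusted p under 0.05, against 6006 of 18194 genes. Of 13 lymphocyte and mast cell markers, Cd3e and Cd4 were lower in the hemisphere (15.4%) and Cd4 in the vermis (7.69%, against 9.46% of all genes). The Cd3e call ended without any array other than wild type hemisphere replicate 1 and wild type vermis replicate 1 (0.0513 to 0.173; -0.26 without wild type hemisphere replicate 3), with median centring (0.0555), quantile normalization (0.0573), the compared groups alone (0.108) and trended moderation (0.0633). In the vermis Cd3e missed the threshold (adjusted p = 0.0553) and passed under the random block (0.0478), with the compared groups alone (0.0294), with the mean of probe sets for every gene (0.0481) and without wild type hemisphere replicate 1 (0.0355) or 3 (0.0151) or wild type vermis replicate 1 (0.0343). Cd4 lost its hemisphere call without wild type hemisphere replicate 2 or SmoM2 hemisphere replicate 1 or 3 (0.0788 to 0.0936) and its vermis call without wild type vermis replicate 2 or 3, SmoM2 hemisphere replicate 1 or 3 or any SmoM2 vermis array (0.0549 to 0.17). Both Cd4 calls also ended with the mean of its probe sets (0.171 and 0.108), the compared groups alone (0.0589 and 0.0618) and trended moderation (0.055 and 0.0825), and the vermis one with median centring (0.0661).

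Markers of other brain cells moved with the members in part. Oligodendrocyte markers fell for 10 of 11 genes in each region (Cnp, a myelin enzyme, by 1.27 ± 0.15 and 1.68 ± 0.15), with medians of -1.28 and -1.81, larger in size than the members' medians of -0.70 and -0.54. Their mean deviation per array in wild type ran from 0.41 to 0.46 (hemisphere) and 0.69 to 1.18 (vermis), and in SmoM2 from -1.07 to -0.46 and from -0.81 to -0.30. Endothelial and pericyte markers gave 1 lower gene of 12 in the hemisphere and 5 in the vermis (medians 0.02 and -0.59), where vermis arrays ran from 0.13 to 0.38 in wild type and from -0.62 to -0.15 in SmoM2. These lower shares were 8.33% and 41.7%, where all genes gave 7.18% and 9.46%. On wild type hemisphere replicate 3 the endothelial list stood at 0.46, against -0.15 and -0.14 on replicates 1 and 2. Astroglia markers gave 4 lower and 2 higher of 10, and 3 lower and 2 higher. Purkinje cell markers gave 1 (Gad1) and 3 lower of 7, and the hemisphere call of Gad1 ended without wild type hemisphere replicate 2 (0.152) or 3 (0.0615), SmoM2 hemisphere replicate 1 (0.149) or 3 (0.133) or SmoM2 vermis replicate 1 (0.052). Granule progenitor markers gave 5 higher in each region with 4 and 3 lower of 12. RMA values have no zero, so no marker can be called absent, and the part of these cell types in the members' differences was not tested.

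**Figure D5:**
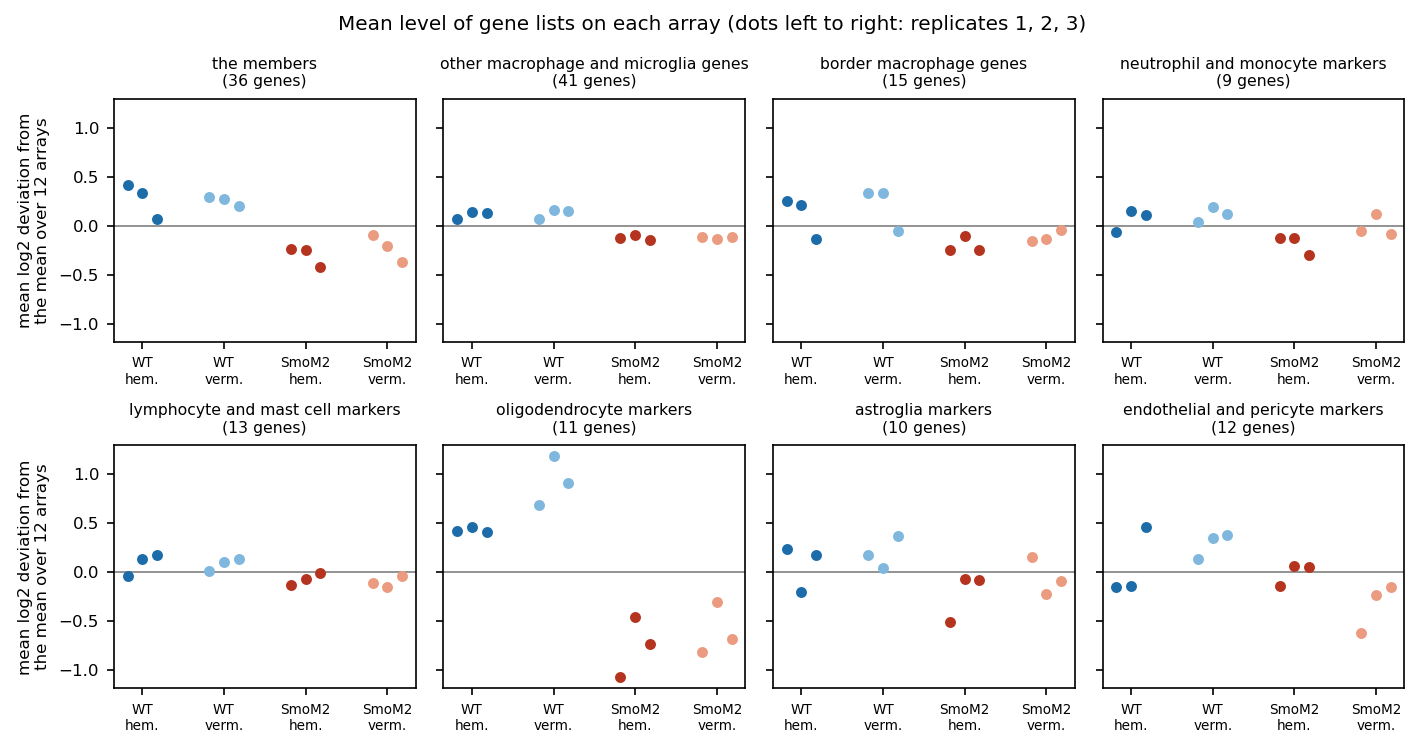
Mean deviation of each gene list from its genes' averages (log2) on each of the 12 arrays, for the 36 members and 7 other lists. Dots are arrays in replicate order and the horizontal line is 0. The members, the other macrophage and microglia genes and the oligodendrocyte markers are above 0 on the 6 wild type arrays and below 0 on the 6 SmoM2 arrays. The border macrophage genes cross 0 on wild type replicate 3 of both regions.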

How the data were processed

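Expression was measured on Affymetrix 3′ expression arrays in 12 pools. The deposited values are log2 expression per probe set, made by the authors with Partek and RMA, per the submitters' processing notes. Versions were not stated in any source at hand. RMA subtracts background, quantile-normalizes and summarises probes, and leaves no detection call.

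Of 45101 probe sets, 34958 had 1 gene symbol in the platform annotation, 932 had several and 9211 had none. The brightest probe set by its 12-array mean stood for each of 18194 genes. Of the members, 13 had several probe sets. The fit was lmFit and eBayes in limma 3.58.1 (R 4.3.3), with 4 group means and 8 residual degrees of freedom, and tests were two-sided, with p adjusted by Benjamini-Hochberg over all genes and a threshold of 0.05. Figures were drawn with matplotlib 3.10.9. The model was tested on simulated data.

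Members, lists and tests were chosen with earlier results of these data known. Every member is described, and for each other list the rule allowed up to 4 genes that passed, by smallest p, of which some are named, with Csf1, Il34, Cx3cl1, Tgfb1, Gli1 and Atoh1 in any case. The 3 arrays a group limit the precision, and nothing says that pools were separate litters, so p-values measure the spread between pools.

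Whether same-numbered pools share mice is not given. Deviations from the group means correlated at 0.34 to 0.53 between same-numbered hemisphere and vermis arrays in wild type (other pairs -0.40 to -0.11) and at 0.14 to 0.27 in SmoM2 (others -0.17 to 0.02). Deviations in a group sum to 0, so the low values of other pairs follow in part from the same-numbered ones. Between genotypes, where pools do not share mice, pairs reached 0.28 (wild type hemisphere 1 with SmoM2 vermis 1). The SmoM2 values are thus not clear of that range. Numbers were taken to pair regions within a genotype, on weaker ground in SmoM2. The pairing was fitted as a random block in an alternative setting, not in the main fit.

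Alternatives were median centring, repeated quantile normalization, brighter genes only, the mean of all probe sets, a fixed and a random replicate block, the compared groups alone, trended and robust moderation, and each array left out.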

Additional observations from a re-analysis of the deposited data

How the results depend on the processing

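No member changed direction in a comparison it passed under any of the 20 settings. Members called numbered 22 in each region. Among genes with a mean above 5.93, 15 members were tested and 13 and 12 passed, where 24.7% and 24.1% of all genes tested there passed. Leaving out each array in turn gave 16 to 23 and 11 to 25. Dropping SmoM2 vermis replicate 2 gave 14 in the vermis, and dropping replicate 3 gave 11, while the share of all genes called there went from 17% to 9.65% and 12.2%. Over the settings that share lay between 8.98% and 24.7%, both regions taken. The remaining settings gave 18 to 26 and 16 to 26. With the pairing of regions as a random replicate block (correlation 0.36) the counts were 22 and 21, and with a fixed replicate block, which the labels do not support across genotypes, 26 and 26. Of all genes, 15% and 17.1% passed under the random block and 17.9% and 20.6% under the fixed block. The region comparisons and the interaction gave 0 members throughout. Between regions, the random block let 1.09% of all genes pass in wild type and 0.214% in SmoM2, against 0.187% and 0.0605% in the main fit. Calls that held in every fit with an array left out were 16 of 22 and 10 of 22. The cause of the other changes was not tested.

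The RMA values limit what can be said of dim probe sets, such as that of Cd84. With 3 arrays a group, a member that did not pass is not shown to be equal between groups.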
